A study of Mus musculus with 72 samples.

Results

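Transcript levels of 8 mouse genes of fatty acid desaturation and elongation were followed in liver and in the suprachiasmatic nucleus (SCN), the hypothalamic nucleus that acts as the central circadian clock. These were the stearoyl-CoA desaturase genes Scd1, Scd2 and Scd3, the polyunsaturated fatty acid desaturase genes Fads1 and Fads2, and the elongase genes Elovl2, Elovl3 and Elovl5. They were taken by symbol, with no threshold on their values, and made up 8 of 22823 genes of the liver count table, 7 of 15759 genes of the SCN count table and 8 of the 24091 genes of both tables. Elovl3 was not among the genes of the SCN count table and so was not analysed there. Counts per part of an exon gave it 0 over 18 control and 6 over 18 MCD libraries of SCN.

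For 11 days C57BL/6 mice, 8 to 12 weeks old and housed singly, had free access to a diet that lacks methionine and choline (MCD) or to its isocaloric control diet. They spent 10 days under 12 h of light and 12 h of darkness and the last day in constant darkness, when tissue was taken at circadian times (CT) 0, 4, 8, 12, 16 and 20 h. Liver came from the left lobe and SCN from brain sections by laser microdissection, and polyadenylated RNA was sequenced in 72 libraries. These formed 24 groups, 12 per tissue, each with a pair of males (replicates 1 and 2) and a female (replicate 3), so a diet had 18 libraries per tissue. Sex and replicate number therefore cannot be told apart in any comparison of the sexes. No group carried a genetic change, and all mice shared strain, housing and lighting. The protocol describes males only, whereas the labels name 12 females per tissue, whose Xist, a transcript of the inactive X chromosome, lay at 831 to 1311 CPM in liver against at most 2.94 CPM in the 24 males. The labels number replicates without naming animals, so p-values measure the spread between these libraries.

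Stearoyl-CoA desaturases place the first double bond into saturated fatty acids made by fatty acid synthase and so supply oleic and palmitoleic acid for triglycerides, cholesteryl esters and phospholipids. FADS2 and FADS1 add double bonds to the essential linoleic and alpha-linolenic acids in alternation with the elongase ELOVL5, ELOVL2 carries the products on towards docosahexaenoic acid, and ELOVL3 lengthens saturated and monounsaturated chains. In liver, Scd1 is the main desaturase gene of new fat synthesis and responds to SREBP-1c, ChREBP and LXR with feeding and insulin, and its decline on MCD diets is well known.

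Scd2, Scd3 and Scd1 lie near each other on chromosome 19, at 44293674-44306864 on the plus strand, 44203269-44244016 on the plus strand and 44394455-44407879 on the minus strand in the GENCODE M21 annotation of build GRCm38. Exon 4 of each gene is coding, is 206 bases long and is shown because, by the order of bins, it is the bin that held nearly all liver counts of Scd3 and 1 of the 3 bins that carried the liver difference of Scd2. The sequences run 5′ to 3′ along the transcript, and capitals mark bases that differ from Scd1.
Scd1 exon 4, chr19:44401693-44401898, minus strand: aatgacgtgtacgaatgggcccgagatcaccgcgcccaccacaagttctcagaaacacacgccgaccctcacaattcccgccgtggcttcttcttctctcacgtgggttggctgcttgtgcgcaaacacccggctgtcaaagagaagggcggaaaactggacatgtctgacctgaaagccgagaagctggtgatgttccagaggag
Scd2 exon 4, chr19:44299609-44299814, plus strand: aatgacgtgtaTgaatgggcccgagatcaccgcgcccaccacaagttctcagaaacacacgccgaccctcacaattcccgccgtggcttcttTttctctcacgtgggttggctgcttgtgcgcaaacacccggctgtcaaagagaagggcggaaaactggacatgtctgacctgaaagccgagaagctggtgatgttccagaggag
Scd3 exon 4, chr19:44235771-44235976, plus strand: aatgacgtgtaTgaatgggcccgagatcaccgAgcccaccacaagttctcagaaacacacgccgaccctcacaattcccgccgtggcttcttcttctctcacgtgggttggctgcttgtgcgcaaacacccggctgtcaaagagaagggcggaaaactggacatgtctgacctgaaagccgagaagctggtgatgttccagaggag
Counted from 1 at the exon's 5′ end, Scd2 differs from Scd1 by C12T and C93T and Scd3 by C12T and C33A, so both were 99.0% identical to Scd1. The longest stretch shared with Scd1 was 113 bases in Scd2 and 173 bases in Scd3. Outside exon 4, the longest stretch that an exon of Scd2 shared with Scd1 was 57 bases, and exon 5 of Scd2 was 92.7% identical to that of Scd1.

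Liver libraries held 52.6 to 86.7 M gene counts and SCN libraries 23.3 to 79.8 M (M, 1000000), and levels are given as CPM (counts per 1000000 counts of a library, scaled by TMM factors). In liver the mean TMM factor was 0.919 for control and 1.093 for MCD libraries, and this scaling set the median liver gene at a diet difference of 0.02 log2. Scaling by library totals alone set it at 0.27 log2, so liver differences here are relative to the TMM scale. Liver libraries fell into 2 kinds by the mitochondrial gene mt-Nd6, 21 low (8 control, 13 MCD) and 15 high (10 control, 5 MCD), and results were repeated within each kind. Fits within a kind held, per diet, a mean and a 24 h cosine and sine, without a level for each time. With 5 MCD libraries in the high kind, a rhythm on MCD that is not called there is not shown to be absent. The males of control CT8 stand under the same name in the gene table, so which is replicate 1 is not known, and they are called a and b. In 3 male liver libraries (control CT08 a, MCD CT04 1 and MCD CT12 2) Cyp2d9, a male-biased cytochrome P450 gene, stood at 218, 95.5 and 93.2 CPM against 469 to 1753 CPM in the other 21 males. For the male-biased genes Slco1a1 and Cyp4a12a only the MCD libraries of these 3 stood apart, and control CT08 a (237 and 75.5 CPM) lay within the range of the other males. Their Xist and Ddx3y levels were those of males, and results were repeated without them, an alternative chosen after seeing these values. The summed level of the hepatocyte markers Alb, Apoa1, Ttr, Serpina1c and Cps1 ran from 78206 to 118392 CPM in control livers and from 55074 to 119144 CPM in MCD livers. Macrophage markers (5 of 6 analysed) summed to 190.0 to 476 and 258 to 582 CPM and stellate markers (4 of 5) to 51.6 to 265 and 70.3 to 375 CPM, none at 0 in all libraries of a diet. Erythrocyte markers (5 of 5) summed to 130.1, 271 and 450.4 CPM (lowest, median, highest) on control and 94.1, 143 and 273 CPM on MCD in liver, and in SCN to 76.6, 231 and 1518 against 43.6, 116 and 395 CPM. Their part in the results was not tested, and in bulk tissue fewer cells of a type and less RNA per cell cannot be told apart.

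In liver, 5 of the 8 genes were called lower on MCD on average over the day: Scd1, Scd2, Elovl2, Elovl3 and Elovl5. None was called higher, Fads1 and Fads2 did not pass the test, and Scd3 could not be given a fold change. The quasi-likelihood F test of edgeR, adjusted by Benjamini and Hochberg with a threshold of 0.05, called 46.6% of the 20249 liver genes tested, 21.2% lower and 25.3% higher. With library totals alone it called 10633 genes higher and 1540 lower, in place of 5130 and 4296, and the same 5 members remained lower. At single times 25 of 48 tests of the 8 genes were called, where the background called in either direction was 12.6% of genes at CT0, 18.2% at CT4, 1.3% at CT8, 15.2% at CT12, 12.5% at CT16 and 11.3% at CT20. All 3 MCD libraries lay below all 3 controls in 13.3% of genes at CT0, 16.1% at CT4, 6.57% at CT8, 14.1% at CT12, 14.8% at CT16 and 13.1% at CT20. Without the 3 male libraries that stood apart the same 5 members were lower, and 29 of the 48 tests at single times were called. Of the 4 calls gained 3 were of Elovl3, whose own low level in these libraries goes with their choice.

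**Figure D1:**
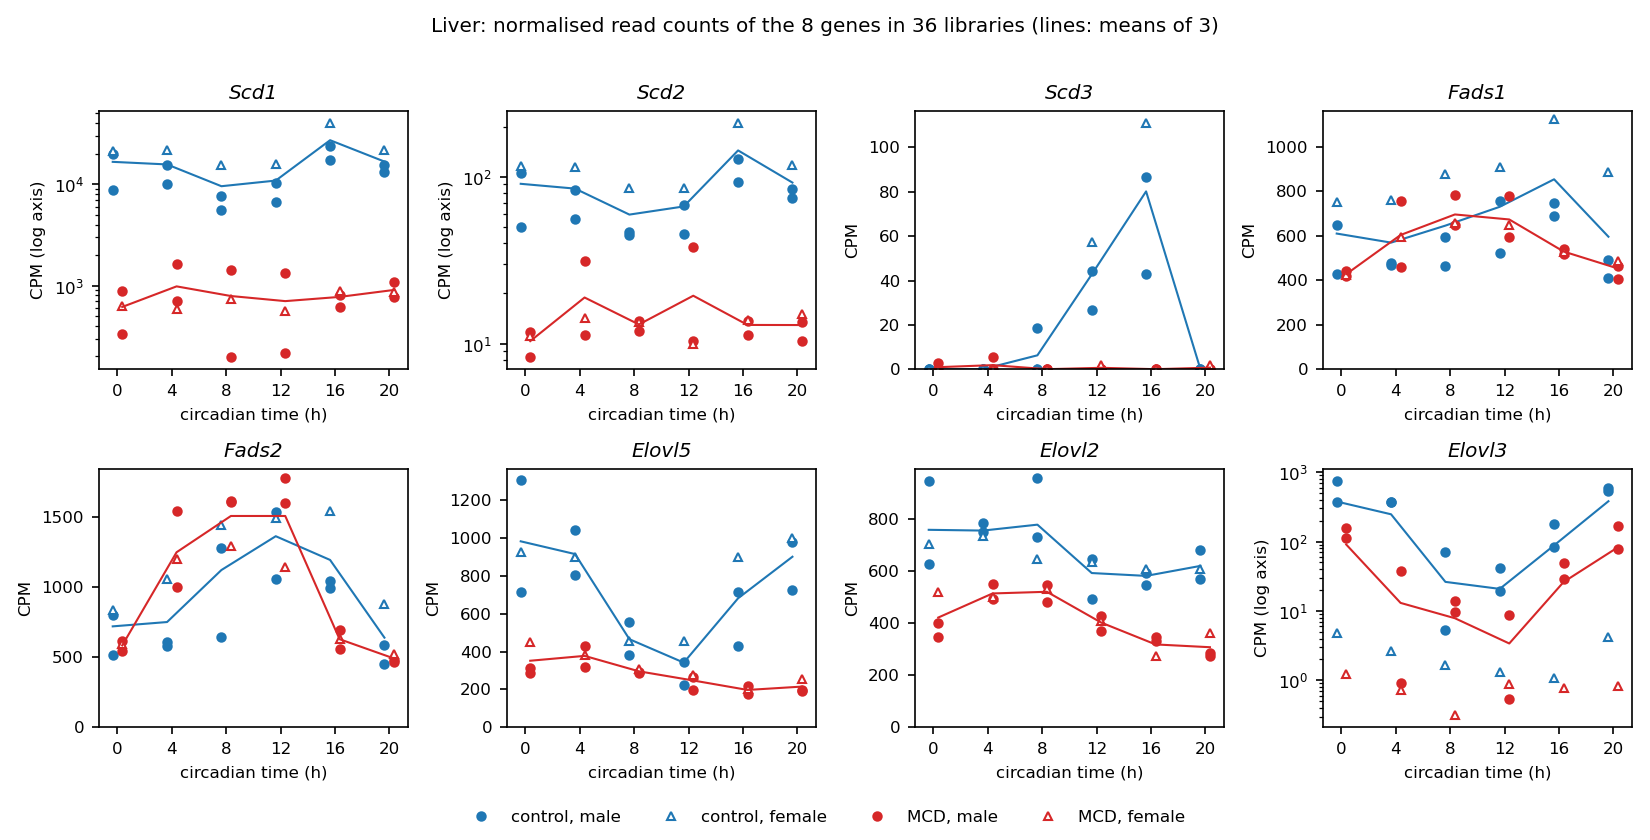
Levels (CPM) of the 8 genes in the 36 liver libraries against circadian time (h), with circles for males, triangles for females, blue for control and red for MCD. Lines join means of 3 libraries, and the CPM axes of Scd1, Scd2 and Elovl3 are logarithmic. All 18 MCD libraries lie below all 18 control libraries for Scd1 and Scd2, while Fads1 and Fads2 overlap.

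Scd1 was lower in every MCD liver than in any control liver. The 18 control libraries lay at 5550, 15434 and 40239 CPM (lowest, median, highest; mean 16098 ± 8240, SD) and the 18 MCD libraries at 195, 756 and 1647 CPM (mean 793 ± 391). The lowest control was the library labelled control CT08 a and the highest MCD library was male 1 of CT4. The difference was -4.22 log2 (SE 0.27, adjusted p = 9.4e-12, edgeR quasi-likelihood test), a fold change of 18.7. Full separation of 18 against 18 libraries in this direction was seen for 0.222% of the liver genes tested.

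The decrease in Scd1 was called at all 6 times. It was smallest at CT8, where Scd1 fell by 3.52 log2 (SE 0.64, adjusted p = 0.0064), and largest at CT16, where it fell by 5.10 log2 (SE 0.69, adjusted p = 5.6e-05). At CT16 the control libraries stood at 23910, 17370 and 40239 CPM and the MCD libraries at 620.0, 808 and 889 CPM. The CT8 call was lost without MCD female 3 of that time (-3.37 log2, adjusted p = 0.058), with DESeq2 (adjusted p = 0.12) and without all replicates 2 or 3 (-3.08 and -3.03 log2, adjusted p = 0.10 and 0.21). Scd1 showed no called 24 h rhythm on either diet (fitted peak-to-trough range 1.05 log2 on control, adjusted p = 0.26, and 0.13 log2 on MCD, adjusted p = 0.98). A difference in its rhythm between the diets was called in none of 36 fits that left out 1 library (adjusted p = 0.35 to 0.93, edgeR). The order of the times is therefore a description. Within the low and high kinds of library the diet difference was -4.34 and -4.39 log2.

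Scd2, the isoform that predominates in brain, also had no overlap between the diets in the liver gene table. It lay at 45.0, 85.4 and 210.2 CPM on control (mean 89.6 ± 40.4, n = 18) and at 8.26, 12.7 and 37.8 CPM on MCD (mean 14.6 ± 7.54, n = 18). The difference was -2.56 log2 (SE 0.18, adjusted p = 7.4e-11, edgeR), called at all 6 times, from -1.70 log2 at CT12 to -3.44 log2 at CT16. When the exon-bin counts of a gene were summed in place of the gene table, the difference was -1.13 log2 (SE 0.21, adjusted p = 2.0e-05, edgeR, which called 39.8% of genes from these sums), and the calls at CT0, CT4, CT8 and CT12 were lost, with -0.15 log2 at CT12 (adjusted p = 0.87). The CT8 call in the gene table was lost without control female 3 (-1.90 log2, adjusted p = 0.063), MCD male 2 (-2.14, 0.067) or MCD female 3 (-2.08, 0.087). Without all replicates 1 or 3 the CT12 call was lost (-1.27 and -1.23 log2, adjusted p = 0.18 and 0.15), and without all replicates 3 the CT4 call (-1.73 log2, adjusted p = 0.052).

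The decrease in Scd2 was carried by 3 of its 11 exon bins, the parts of exons for which the deposited files give separate counts. Bins 5, 7 and 8 differed by -3.17, -3.23 and -2.04 log2 (SE 0.24, 0.25 and 0.23), and each was called among 233682 bins tested singly with edgeR, of which 26.4% were called in either direction. The other 6 bins tested (2, 3, 4, 9, 10 and 11) differed by 0.03 to 0.15 log2, with adjusted p-values from 0.66 to 0.95 and SE of 0.20 to 0.28. By order, bin 5 is exon 4 and bins 7 and 8 are exon 5 in the M21 model of Scd2. That model has 10 bins where the files have 11, and the files give no coordinates, so the assignment could not be checked.

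Bins 5, 7 and 8 together took 29.96%, 61.9% and 79.0% (lowest, median, highest) of the Scd2 bin counts of a control liver library and 10.9%, 17.5% and 25.7% of those of an MCD library. The diets did not overlap, and the control library with the lowest share was control CT08 1. In SCN the same bins took 4.55%, 7.80% and 10.2% on control. The other 8 bins summed to 3.84, 4.93 and 13.3 CPM in the 16 control libraries with complete files and to 3.99, 5.63 and 19.5 CPM in the 18 MCD libraries, which overlapped over most of their range. Between libraries of a diet these bins varied most in control CT08 1 (13.3 CPM), MCD CT04 1 (17.3 CPM) and MCD CT12 2 (19.5 CPM), against at most 8.76 CPM in the others.

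The gene table held 5.81 times the Scd2 bin counts on control and 2.04 times on MCD in liver, against 1.62 times on both diets in SCN. For Scd1 the ratio was 1.39 and 1.38 in liver, and for Fads1, Fads2, Elovl2, Elovl3 and Elovl5 it lay between 0.999 and 1.46 and was nearly the same on both diets. For Scd3 it was 3.18 on control and 2.04 on MCD in liver, so in liver the ratios of Scd2 and Scd3 differed between the diets. Whether reads of Scd1 were counted to Scd2 or Scd3 was not tested, since the files hold no reads.

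**Figure D2:**
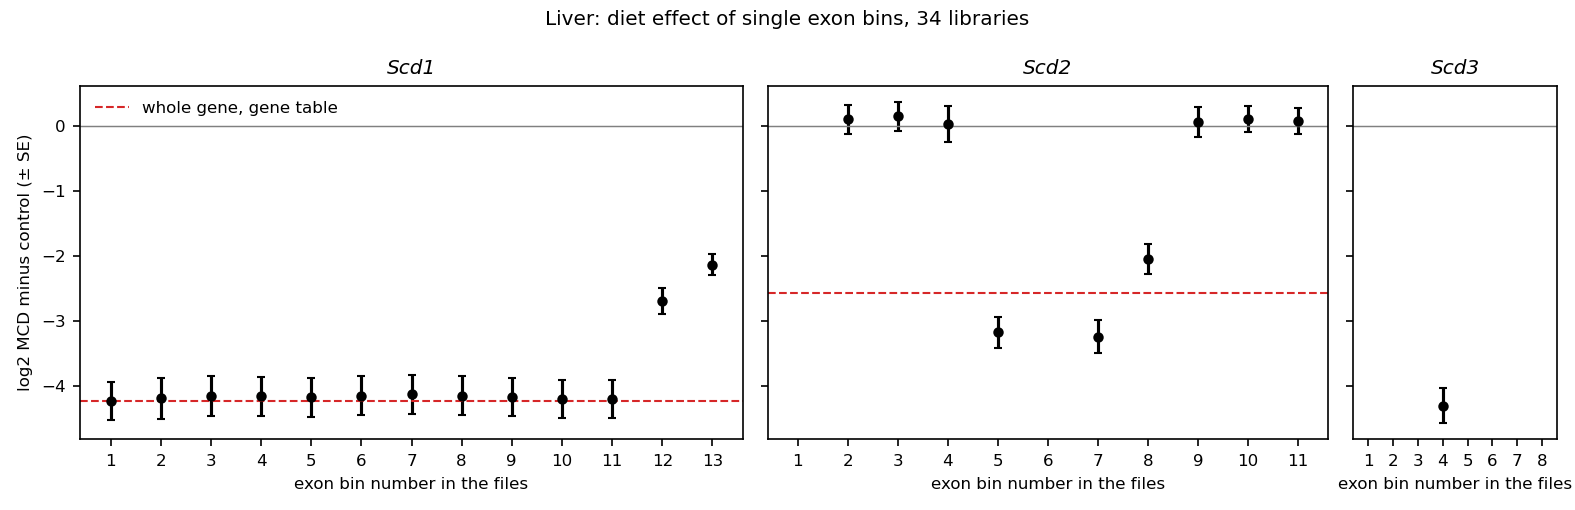
Diet difference (log2 MCD minus control, with SE) of single exon bins of Scd1, Scd2 and Scd3 in 34 liver libraries, by bin number in the files. The dashed line is the value of the gene table. Bins 12 and 13 of Scd1 fell less than its bins 1 to 11, bins 5, 7 and 8 of Scd2 fell while its 6 other bins tested lay near 0, and only bin 4 of Scd3 held enough counts to be tested.

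Scd3, best known from sebaceous gland and skin, had counts in 1 bin almost alone. Of its 7267 bin counts in the 18 control livers 7227 fell in bin 4 (99.4%), and of 461 in the MCD livers 457 did. Bin 4 is exon 4 in the M21 model, which has 8 bins like the files. Bin 4 differed by -4.29 log2 (SE 0.27, adjusted p = 4.6e-12, edgeR over single bins), with 163 to 816 counts per control library and 6 to 75 per MCD library. In every 10000 Scd1 bin counts there were 3.92, 6.54 and 8.47 counts of Scd3 bin 4 on control (lowest, median, highest) and 2.50, 5.54 and 11.2 on MCD, which overlapped. For bins 5, 7 and 8 of Scd2 together these values were 7.06, 8.13 and 11.4 on control and 8.89, 20.6 and 59.8 on MCD, with some overlap. In SCN the Scd3 counts were spread over bins 4 to 8, with 110 of 2104 control counts in bin 4 and 52.1% in bin 8.

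In the gene table Scd3 was listed at 0 in 11 of 18 control livers and in 14 of 18 MCD livers, although bin 4 held counts in all of them. It was above 0 in all 6 control libraries of CT12 and CT16, at 26.5 to 110.8 CPM, and in the library labelled control CT08 a at 18.8 CPM. The 4 MCD libraries above 0 held 1.86 to 5.47 CPM. Its fitted changes rested on zeros and were unbounded, so they are not reported as folds, and its calls for CT16 and for rhythm on control and between the diets are counted but not interpreted.

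Scd1 itself did not fall evenly along its length. Bins 1 to 11 differed by -4.12 to -4.22 log2, with MCD totals at 6.23% to 6.55% of control totals. Bins 12 and 13, the most upstream in M21 order, differed by -2.69 (SE 0.20) and -2.13 log2 (SE 0.16), with MCD totals at 19.2% and 28.2% of control. Together they held 0.146% to 0.338% of Scd1 bin counts on control and 0.545% to 1.11% on MCD, without overlap. The edgeR exon-usage test called Scd1 (adjusted p = 1.0e-12), Scd2 (adjusted p = 6.8e-19) and Elovl2 (adjusted p = 0.0095) among the 7 genes that it could test, where 3.79% of 14108 genes were called. The Elovl2 call rested on its bin 9, which held 246 counts on control, 62 of them in the library labelled control CT08 1, and 69 on MCD. Without that library it was lost (adjusted p = 0.078).

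Fads2, which encodes the enzyme of the entry step to long-chain polyunsaturated fatty acids, showed no called diet difference averaged over time and sex, but a called difference in its course over the day. Over 18 libraries each it lay at 449, 938 and 1545 CPM on control and at 467, 848 and 1776 CPM on MCD. The mean difference was -0.03 log2 (SE 0.11, 95% interval -0.24 to 0.18, adjusted p = 0.85, edgeR), and with library totals alone it was 0.21 log2. Females were called lower on MCD (-0.49 log2, SE 0.15, adjusted p = 0.019, 24.8% of genes called), while males gave 0.19 log2 (SE 0.11, adjusted p = 0.15, 39.6% called). Fads2 lies at 19:10062765-10101746 on the minus strand and its neighbour Fads1 at 19:10182888-10196877 on the plus strand.

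At CT0 Fads2 stood at 802, 518 and 838 CPM on control (replicates 1 to 3) and at 543, 613 and 594 CPM on MCD. At CT4 the control libraries stood at 610.2, 580.2 and 1060.1 CPM and the MCD libraries at 1000.5, 1542 and 1203 CPM, so that MCD was higher apart from the control female. At CT8 the values were 1277, 642 and 1446 CPM in control livers against 1616, 1611 and 1296 CPM in MCD livers. At CT12 they were 1533, 1060.1 and 1496 CPM in control livers against 1776, 1601 and 1146 CPM in MCD livers, and the groups overlapped. At CT16 the control libraries were still at 1042, 994.6 and 1545 CPM while all MCD libraries had dropped to 696, 556 and 631 CPM, the only time at which all MCD libraries lay below all controls. At CT20 the values were 449, 586 and 880.5 CPM in control livers against 467, 482 and 521 CPM in MCD livers.

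The 24 h rhythm of Fads2 was called on both diets, with a range of 1.11 log2 on control (adjusted p = 0.0018) and 1.90 log2 on MCD (adjusted p = 2.1e-06), where 17.8% and 28.2% of liver genes were called. The control call was lost with exon-bin sums (1.07 log2, adjusted p = 0.054), within the low and high kinds of library (0.71 and 1.02 log2, adjusted p = 0.30 and 0.087) and without all replicates 1 or 2 (adjusted p = 0.12 and 0.074). The MCD call was lost within the high kind (1.70 log2, adjusted p = 0.087). The rhythms differed between the diets (range of the difference 1.44 log2, adjusted p = 0.0156, edgeR), a call made for 4.87% of genes. A cosinor fit placed the peak at CT11.8 (SE 0.74 h) on control and CT8.44 (SE 0.33 h) on MCD. Fads2 was higher on MCD at CT4 by 0.76 log2 (SE 0.26, adjusted p = 0.0425) and fell by 0.91 log2 at CT16 (SE 0.26, adjusted p = 0.0221).

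These Fads2 calls at single times rested on 3 libraries per group. The CT4 call was lost without control male 1 (0.67 log2, adjusted p = 0.156), control male 2 (0.64, 0.179), MCD male 1 (0.87, 0.051) or MCD male 2 (0.53, 0.196). The CT16 call was lost without control female 3 (-0.77 log2, adjusted p = 0.095), MCD male 2 (-0.88, 0.072) or MCD female 3 (-0.85, 0.0995). The CT4 call was also lost with exon-bin sums (0.75 log2, adjusted p = 0.051) and in a fit with a term for library kind (0.68 log2, adjusted p = 0.052), and the CT16 call with library totals alone (-0.64 log2, adjusted p = 0.097). The difference in rhythm kept its call without any single library and lost it without all replicates 1 (1.61 log2, adjusted p = 0.23) or all replicates 2 (1.25 log2, adjusted p = 0.32). Within the low and high kinds of library its range was 1.59 and 1.79 log2 with adjusted p-values of 0.13 and 0.42. A fit with a term for replicate number, without the control CT8 males, gave 1.30 log2, not called (adjusted p = 0.0507, edgeR). Without the 3 male libraries the range was 1.61 log2 (adjusted p = 0.0094).

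Fads1, whose enzyme acts after FADS2 and an elongation step to give arachidonic and eicosapentaenoic acid, lay at 410.3, 669.8 and 1124 CPM on control and at 407, 534 and 782 CPM on MCD. The mean difference of -0.22 log2 (SE 0.09, adjusted p = 0.052, edgeR) missed the threshold, and its sign turned with library totals alone (0.03 log2). The value is close to the threshold, since DESeq2 called it (-0.23 log2, adjusted p = 0.025) and so did 14 of the 36 edgeR fits that left out 1 library (-0.27 to -0.23 log2). It was called within the low kind of library (-0.36 log2, adjusted p = 0.017) but not within the high kind (-0.19 log2, adjusted p = 0.25).

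Fads1 was called rhythmic on MCD, with a range of 0.75 log2 (adjusted p = 0.0096) and group means from 427 ± 11.9 CPM at CT0 to 696 ± 74.8 CPM at CT8 (SD, n = 3). The call was lost without all replicates 1 or 2 (0.61 and 0.86 log2, adjusted p = 0.21 and 0.053) and within the high kind of library (0.54 log2, adjusted p = 0.46). On control its highest mean was 854 ± 236 CPM at CT16 and the rhythm was not called (range 0.49 log2, adjusted p = 0.15). The difference between these rhythms did not pass the test (range 0.77 log2, adjusted p = 0.17).

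Elovl5, the elongase that works between FADS2 and FADS1, was lower on MCD and had a different daily course. The control libraries lay at 222, 719.6 and 1309 CPM (mean 715 ± 293) and the MCD libraries at 173, 281 and 453 CPM (mean 280.2 ± 80.8). The difference was -1.30 log2 (SE 0.10, adjusted p = 8.5e-11, edgeR), with 6 of 18 MCD libraries below every control library and all 3 MCD libraries below all 3 controls at 5 of 6 times. It was called at CT0, CT4, CT16 and CT20, from -1.29 log2 at CT4 to -2.09 log2 at CT20, but not at CT8 (-0.66 log2, adjusted p = 0.19) or CT12 (-0.45 log2, adjusted p = 0.197). The CT0 call was lost with exon-bin sums (-1.22 log2, adjusted p = 0.051) and without all replicates 1 (-1.10 log2, adjusted p = 0.073).

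The control means of Elovl5 ran from 984 ± 302 CPM at CT0 down to 341 ± 117 CPM at CT12 and back to 902 ± 155 CPM at CT20, while MCD means ran from 377 ± 56.3 CPM at CT4 to 197 ± 21.6 CPM at CT16 (SD, n = 3). Its rhythm was called on control (range 1.54 log2, adjusted p = 1.2e-05) and on MCD (range 0.95 log2, adjusted p = 0.0018). Within the high kind of library, with 10 control and 5 MCD libraries, neither was called (1.37 and 0.77 log2, adjusted p = 0.0596 and 0.60). The MCD call was also lost without all replicates 2 (0.77 log2, adjusted p = 0.080). The rhythms differed (range of the difference 1.51 log2, adjusted p = 0.0056, edgeR), though not without all replicates 1 or 2 (1.46 and 1.41 log2, adjusted p = 0.15 and 0.14), and cosinor peaks were at CT23.3 (SE 0.67 h) and CT3.94 (SE 0.54 h). Within the low and high kinds of library the range of the difference was 1.86 and 1.38 log2, not called (adjusted p = 0.12 and 0.51).

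Elovl2, which extends polyunsaturated chains beyond the step of ELOVL5, was lower on MCD at all 6 times without overlap within a time. Control libraries lay at 493, 644 and 956 CPM (mean 679.6 ± 123) and MCD libraries at 272, 403 and 548 CPM (mean 413 ± 95.4), with 13 of 18 MCD libraries below every control. The difference was -0.74 log2 (SE 0.07, adjusted p = 1.6e-09, edgeR) and -0.49 log2 with library totals alone. It was called at 5 times, from -0.56 log2 at CT12 to -1.02 log2 at CT20, and missed at CT8 (-0.58 log2, adjusted p = 0.073). With library totals alone the CT4 and CT12 values were -0.26 and -0.20 log2 and not called (adjusted p = 0.31 and 0.44), and with exon-bin sums the CT0 call was lost (-0.69 log2, adjusted p = 0.12). The CT4 call was lost without control male 2, MCD male 1 or MCD female 3 (adjusted p = 0.060, 0.064 and 0.052). The CT12 call was lost without control male 1, control female 3 or MCD male 2 (adjusted p = 0.102, 0.072 and 0.092). Both calls were also lost without all replicates 1, 2 or 3 (adjusted p = 0.059 to 0.20). The CT0 call was lost without all replicates 1 (-0.54 log2, adjusted p = 0.26) and the CT20 call without all replicates 2 (-0.88 log2, adjusted p = 0.062).

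The Elovl2 rhythm was called on MCD (range 0.84 log2, adjusted p = 1.3e-04), with means from 519 ± 32.9 CPM at CT8 to 306 ± 48.8 CPM at CT20. On control the range was 0.48 log2 (adjusted p = 0.032), and this call was lost in 8 of the 18 fits that left out a control library: males 1 of CT0, CT4, CT16 and CT20, males 2 of CT4, CT12 and CT16, and female 3 of CT16 (adjusted p = 0.051 to 0.0899). It was also lost with exon-bin sums (0.40 log2, adjusted p = 0.095), within the low and high kinds (adjusted p = 0.15 and 0.21) and without all replicates 1 or 2 (adjusted p = 0.38 and 0.21). A fit with a term for replicate number, without the control CT8 males, lost it too (0.43 log2, adjusted p = 0.061). The MCD call was lost within the high kind (0.95 log2, adjusted p = 0.087). The difference between the rhythms did not pass the test (range 0.49 log2, adjusted p = 0.23).

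Elovl3, a strongly male-biased and circadian hepatic elongase gene in mice, was called lower on MCD and differed most between the sexes. Males lay at 5.34, 272 and 750.0 CPM on control and at 0.542, 32.9 and 169 CPM on MCD (n = 12 each). Females lay at 1.06, 2.15 and 4.77 CPM on control and at 0.312, 0.805 and 1.24 CPM on MCD (n = 6 each). The diet difference was -2.23 log2 (SE 0.46, adjusted p = 2.7e-04, edgeR). It was -2.45 log2 in males (SE 0.53, adjusted p = 8.0e-04) and -1.61 log2 in females (SE 0.90, adjusted p = 0.21), with no called difference between them (0.83 log2, SE 1.04, adjusted p = 0.84). Within the high kind of library the diet difference was -1.88 log2 and not called (adjusted p = 0.082). The 3 male libraries low in male-biased genes are low in Elovl3 too, so values of Elovl3 without them are a description only. Without them the diet difference was -2.06 log2 (SE 0.28).

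Control males stood highest in Elovl3 at CT0 (377 and 750.0 CPM) and CT20 (598.5 and 540.5 CPM) and lowest at CT8 (5.34 and 71.6 CPM) and CT12 (19.4 and 41.6 CPM). MCD males stood at 113 and 157 CPM at CT0 and 169 and 78.5 CPM at CT20, and at 0.915 and 37.5 CPM at CT4. The rhythm was called on control (range 4.02 log2, adjusted p = 0.011) and on MCD (range 3.75 log2, adjusted p = 0.017), with no called difference (adjusted p = 0.81). The control call was lost with exon-bin sums (3.52 log2, adjusted p = 0.098) and within the low and high kinds of library (adjusted p = 0.067 and 0.23), and the MCD call within the high kind (adjusted p = 0.21). Both were lost without all replicates 1 or 2 (adjusted p = 0.14 to 0.27). Without the 3 male libraries these ranges were 3.68 and 3.13 log2. The MCD call was lost without MCD male 2 of CT8 (adjusted p = 0.053). Of the single times only CT4 was called (-3.66 log2, SE 1.15, adjusted p = 0.028), and this call was lost without control male 1 (-3.46 log2, adjusted p = 0.0704), control male 2 (-3.49, 0.068) or MCD male 1 (-2.95, 0.107). It was also lost in a fit with a term for library kind (-2.95 log2, adjusted p = 0.068). Elovl3 (19:46131897-46135694, plus strand) overlaps Pitx3 on the opposite strand, and the counting's use of strand is not given in the sources used here.

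**Figure D3:**
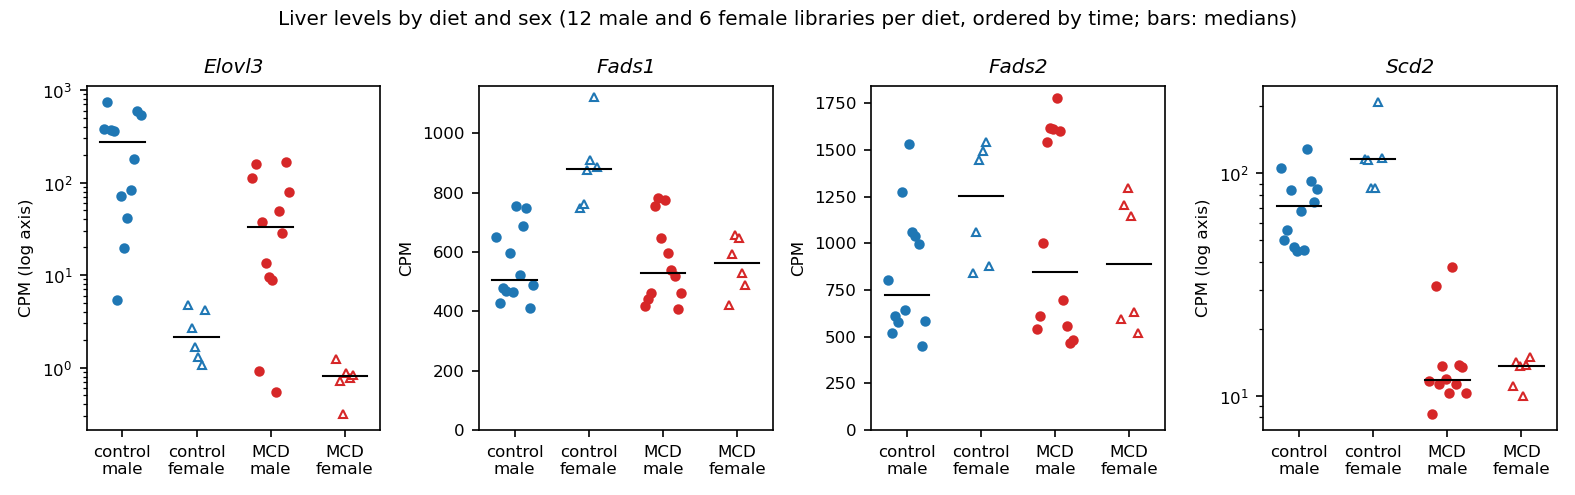
Liver levels (CPM) of Elovl3, Fads1, Fads2 and Scd2 by diet and sex, with 12 male and 6 female libraries per diet and bars at medians; the axes of Elovl3 and Scd2 are logarithmic. Control females lie above most control males in Fads1, from 749.5 to 1124 CPM, while MCD females and males overlap, and Elovl3 is low in all females.

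On the control diet the female library stood above both males at all 6 times for Scd1, Scd2 and Fads1 and at 5 of 6 times for Fads2. On MCD this order held at 1, 2, 1 and 1 of 6 times. For Elovl5 it held at 3 times on control and 4 on MCD, for Elovl2 at 1 and 2, for Scd3 at 2 and 2 and for Elovl3 at none. Over all genes and times the female stood above both males in 37.9% of cases on control and 33.1% on MCD. Each female is replicate 3, so sex cannot be told apart from replicate number here. Fads1 lay at 749.5 to 1124 CPM in the 6 control females and at 410.3 to 757 CPM in the 12 control males, and at 422 to 658 and 407 to 782 CPM on MCD. The edgeR test of females against males called Fads1 on control (0.67 log2, SE 0.10, adjusted p = 4.1e-05), where 9.87% of genes were called, and not on MCD (-0.01 log2, SE 0.10, adjusted p = 0.99), where 2.23% were. The diet difference of Fads1 was -0.68 log2 in females (SE 0.12, adjusted p = 1.6e-04) and 0.00 log2 in males (SE 0.08, adjusted p = 0.99), where 24.8% and 39.6% of genes were called.

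The difference between these diet effects was itself called for Fads1 (-0.68 log2, SE 0.15, adjusted p = 0.0125, edgeR), as for 1.77% of genes, and no other of the 8 genes passed. For Fads2 it had the same size (-0.68 log2, SE 0.19) and an adjusted p of 0.059, and it was called with DESeq2 (adjusted p = 0.0102), with limma voom (0.045) and in 5 fits that left out 1 library, among them that without control CT08 a (-0.75 log2, adjusted p = 0.016). Scd1 and Scd2 gave -1.05 log2 (SE 0.47, adjusted p = 0.35) and -0.87 log2 (SE 0.33, adjusted p = 0.23). Without the 3 male libraries low in male-biased genes Fads2 gave -0.78 log2 and Fads1 -0.76 log2. Those libraries were chosen by sex-biased genes after their values were seen, so these values are a description only. Within the low and high kinds of library the Fads1 value was -0.53 and -0.68 log2, not called (adjusted p = 0.65 and 0.88). Without replicate 2, which removes 12 males, it was -0.58 log2 (adjusted p = 0.34).

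Averaged over the diets, females and males differed in Elovl3 (-5.75 log2, SE 0.63, adjusted p = 6.7e-07, edgeR) and Fads1 (0.34 log2, SE 0.10, adjusted p = 0.024), where 9.44% of genes were called. The Fads1 value was lost without any of the 6 control females in turn (0.28 to 0.33 log2, adjusted p = 0.051 to 0.082). It was also lost with exon-bin sums (0.33 log2, adjusted p = 0.052), within the low kind of library (0.10 log2, adjusted p = 0.77) and without all replicates 1 or 2 (0.37 and 0.32 log2, adjusted p = 0.10 and 0.15). A fit with a term for replicate number, without the control CT8 males, lost it too (0.30 log2, adjusted p = 0.061). Without the 3 male libraries the Fads1 value was 0.32 log2 and that of Scd2 0.45 log2. These are a description only, since those libraries were chosen by sex-biased genes. On control alone Scd2 (0.72 log2, SE 0.22, adjusted p = 0.042) and Fads2 (0.56 log2, SE 0.13, adjusted p = 0.0045) were also higher in females, while on MCD only Elovl3 was called (-5.32 log2).

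In SCN the order of the genes was different and the diet difference was small. Per kilobase of exon on the control diet, Scd2 led in SCN with 306 ± 25.2 CPM per kb (SD, n = 18), followed by Scd1 (86.3 ± 12.0), Fads2 (81.9 ± 6.03), Fads1 (65.9 ± 5.48), Elovl5 (33.9 ± 3.31), Elovl2 (2.12 ± 0.393) and Scd3 (1.42 ± 0.363). The levels of Scd1 and Fads2 did not differ beyond their spread. In liver Scd1 led with 3291 ± 1684 CPM per kb, followed by Fads2 (293 ± 112), Elovl5 (203 ± 83.3), Elovl2 (171 ± 31.1), Fads1 (139 ± 41.8), Elovl3 (96.2 ± 124), Scd2 (16.4 ± 7.40) and Scd3 (6.06 ± 9.57). The place of Elovl3 joins unlike sexes, with control males at 143.7 ± 128 CPM per kb (Fads1 116.1 ± 25.9) and control females at 1.32 ± 0.791 CPM per kb (Scd2 22.3 ± 8.37). From Fads2 to Elovl3 each gene lay within the spread of its neighbour. Over all times on MCD Fads2 led with 302 ± 145 CPM per kb while Scd1 stood at 162 ± 79.9. MCD means of Fads2 ran from 490 CPM at CT20 to 1508 CPM at CT8, so this order need not hold at each time.

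**Figure D4:**
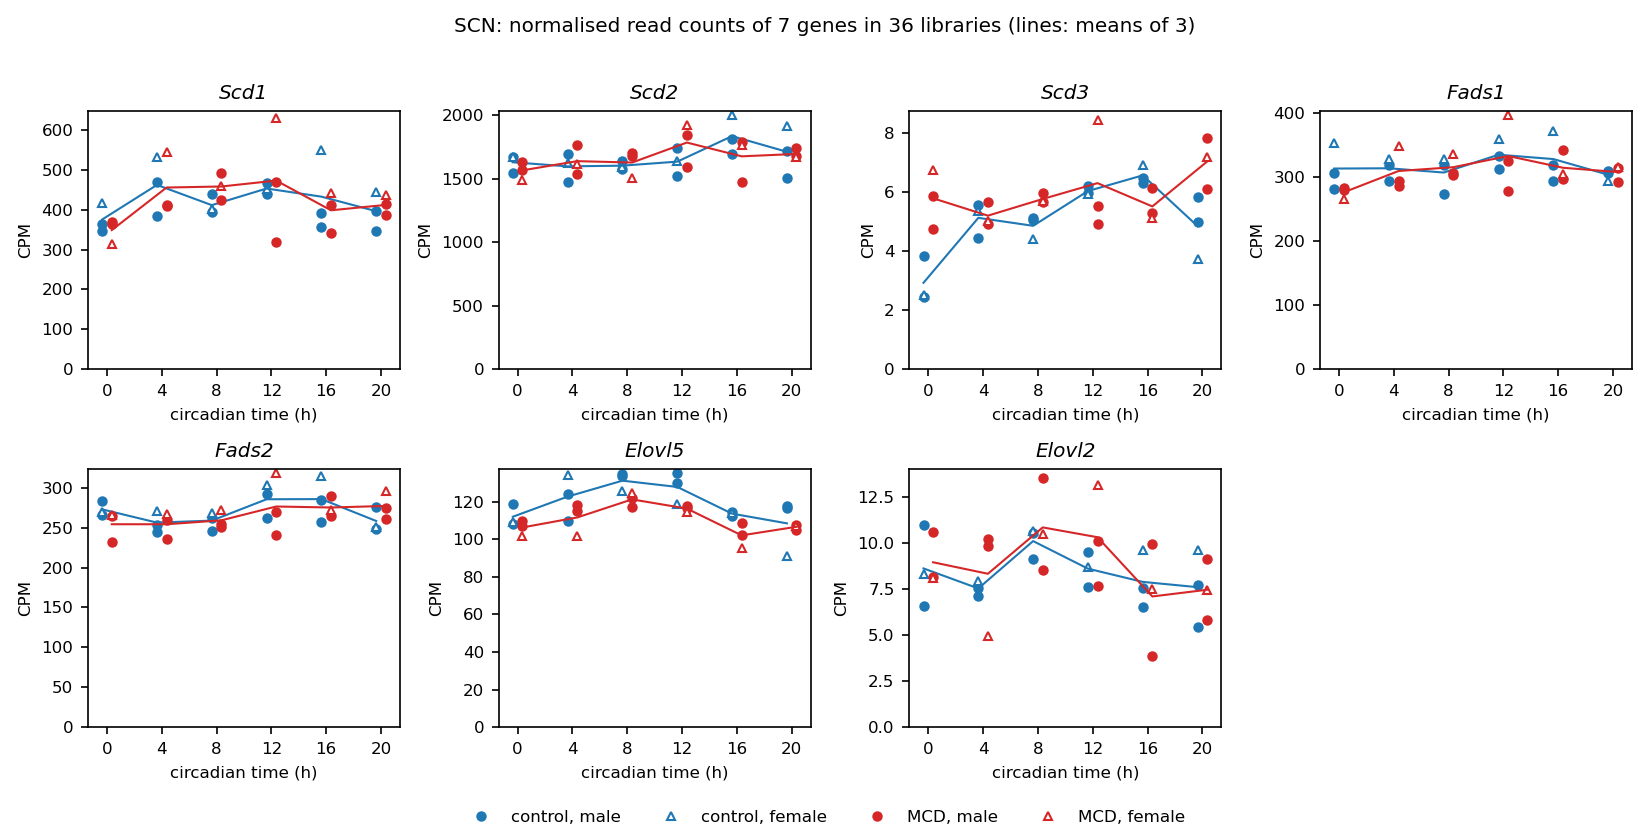
Levels (CPM) of 7 genes in the 36 SCN libraries against circadian time (h), with circles for males, triangles for females, blue for control and red for MCD, and lines through means of 3 libraries. Over the day as a whole control and MCD libraries overlap for each gene. Scd3 at CT0 is lower on control (2.45 to 3.82 CPM) than on MCD (4.75 to 6.76 CPM), and Elovl5 and Scd3 are also without overlap at other times.

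The edgeR test called no member for diet in SCN, on average or at any single time, where it called 0.0635% of the 15759 genes tested on average (10 genes, with 746 at an unadjusted p under 0.05, and 21 by limma voom and 47 by DESeq2). At single times edgeR called 0.00635% of genes at CT0, CT16 and CT20, 0.0444% at CT4 and 0% at CT8 and CT12. Scd1 lay at 346, 409 and 549.7 CPM on control and at 314, 414 and 631 CPM on MCD (lowest, median, highest), and the difference was 0.01 log2 with a 95% interval of -0.11 to 0.12. Scd2 stood at 1670.1 ± 138 CPM in control and 1666 ± 126 CPM in MCD libraries (SD, n = 18), with an interval of -0.08 to 0.07 log2. The libraries of the diets overlapped almost entirely for both desaturase genes. The interval was -0.11 to 0.04 log2 for Fads1, -0.08 to 0.04 log2 for Fads2 and -0.16 to 0.30 log2 for Elovl2, which stood at 8.41 ± 1.56 CPM on control. Elovl5 gave -0.11 log2 (-0.17 to -0.04, adjusted p = 0.45, edgeR) and Scd3 0.26 log2 (0.09 to 0.44, adjusted p = 0.61). At single times all 3 MCD libraries lay below all 3 controls for Elovl5 at 3 times and for Scd3 at 1 time, and above them for Scd3 at 3 times, where 8.96% of all genes and times lacked overlap.

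Over the day, SCN rhythms on control were called for Scd3 (range 0.84 log2, adjusted p = 0.0050) and Elovl5 (range 0.29 log2, adjusted p = 0.0083), where 15.1% of SCN genes were called. Scd3 had its lowest control mean at CT0, 2.93 ± 0.774 CPM, and its highest at CT16, 6.56 ± 0.322 CPM (SD, n = 3). On MCD edgeR called no member where it called 16.1% of genes, while limma voom and DESeq2 called Elovl5 (range 0.21 and 0.20 log2, adjusted p = 0.045 and 0.048), and the difference between the rhythms was called for none, where 0.0127% of genes were. Scd3 at CT0 stood at 0.98 log2 above control on MCD (SE 0.22, adjusted p = 0.18, edgeR), the lowest adjusted p among the members at single times in SCN. DESeq2 called it (0.96 log2, adjusted p = 0.023) and limma voom did not (0.83 log2, adjusted p = 0.36). When exon-bin counts were summed the Scd3 rhythm on control was not called (0.73 log2, adjusted p = 0.15), nor was it without replicate 2 (0.74 log2, adjusted p = 0.21). The Elovl5 rhythm on control was not called without replicate 1, 2 or 3 (0.29, 0.34 and 0.23 log2, adjusted p = 0.12, 0.053 and 0.064). Nor was it in a fit with a term for replicate number (0.28 log2, adjusted p = 0.118).

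Females had higher SCN levels than males of Scd1 (469 ± 83.7 against 400.5 ± 45.9 CPM, 0.22 log2, SE 0.06, adjusted p = 0.024), Fads1 (334 ± 35.7 against 303 ± 18.3 CPM, 0.14 log2, SE 0.04, adjusted p = 0.027) and Fads2 (281 ± 21.7 against 262 ± 16.3 CPM, 0.10 log2, SE 0.03, adjusted p = 0.049), with SD over 12 females and 24 males and edgeR's test, which called 9.89% of genes. The sexes overlapped for all of these genes, and sex cannot be told apart from replicate number. The Scd1 call was lost without female 3 of control CT4 or CT16 or of MCD CT4 or CT12 (0.17 to 0.21 log2, adjusted p = 0.051 to 0.078). The Fads1 call was lost without female 3 of control CT0 or CT16, male 1 of control CT16, or female 3 of MCD CT4 or CT12 (0.11 to 0.12 log2, adjusted p = 0.051 to 0.086), and the Fads2 call in 26 of 36 fits that left out 1 library. With library totals alone the Fads1 and Fads2 calls were lost (0.10 and 0.07 log2, adjusted p = 0.064 and 0.17), as with exon-bin sums (0.13 and 0.09 log2, adjusted p = 0.071 and 0.16). The Fads2 call was also lost in a fit with a term for replicate number (0.10 log2, adjusted p = 0.060). All 3 calls were lost without all replicates 1 or 2 (adjusted p = 0.056 to 0.38). For a sex difference in the SCN diet effect edgeR called 0% of genes (826 at an unadjusted p under 0.05), limma voom 0 genes and DESeq2 1 gene.

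The summed level of SCN neuron markers ran from 1630 to 3224 CPM in control libraries and from 1725 to 4212 CPM in MCD libraries, with all 7 above 0 in some library. Oligodendrocyte markers summed to 1480 to 2476 and 1254 to 2530 CPM and astrocyte markers to 2465 to 3337 and 2535 to 3371 CPM, all 8 and 6 of them measured. Oligodendrocytes are a known source of Scd2 transcripts, and the part of these or other cells in the SCN values was not tested. The 3 genes most like Scd2 over the SCN libraries were Slc1a2 (Pearson r = 0.85), Ntrk2 (0.83) and Myo6 (0.82), none of them in these marker lists. Hepatocyte markers (2 of 5 measured) summed to 2.34 to 27.3 CPM in SCN on control.

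Between the tissues on the control diet, SCN minus liver was -6.13 log2 for Scd1 (SE 0.22), -7.32 log2 for Elovl2 (SE 0.13) and 3.32 log2 for Scd2 (SE 0.14), in an edgeR fit of all 72 libraries that called 91.6% of 14491 genes. Fads1, Fads2 and Elovl5 gave -2.02, -2.75 and -3.47 log2. TMM scaling of both tissues together set the median gene at 0.03 log2, where library totals alone set it at 0.75 log2. With totals alone 9324 genes were called higher in SCN and 4028 lower, in place of 6772 and 6498. These values are thus relative to the joint TMM scale, and CPM levels, which were scaled within a tissue, do not give the same differences. The liver level of Scd2 includes the counts of its bins 5, 7 and 8.

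The diet effect differed between the tissues for 4 of the 7 members in both tables, where 34.7% of genes were called. Given as the SCN effect minus the liver effect, it was 4.23 log2 for Scd1 (SE 0.26, adjusted p = 6.5e-18), 2.56 log2 for Scd2 (SE 0.18, adjusted p = 1.2e-15), 1.20 log2 for Elovl5 (SE 0.10, adjusted p = 4.4e-13) and 0.82 log2 for Elovl2 (SE 0.14, adjusted p = 4.7e-06). For Fads1 it was 0.19 log2 (adjusted p = 0.14) and for Fads2 0.02 log2 (95% interval -0.21 to 0.24, adjusted p = 0.95). The Scd2 value rests on its liver difference in the gene table, which was -1.13 log2 with exon-bin sums in place of -2.56. Tissue and dissection cannot be told apart in these values.

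**Figure D5:**
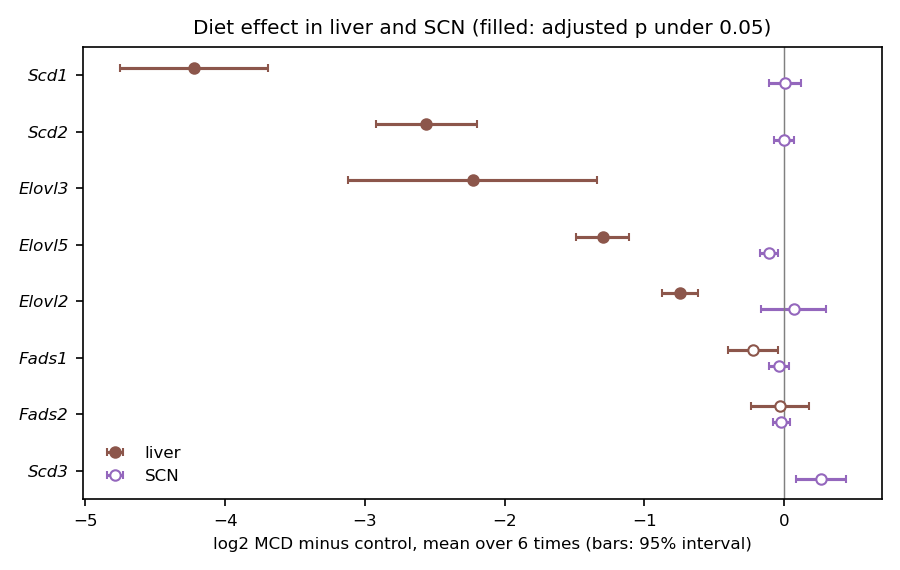
Diet difference (log2 MCD minus control, with 95% interval) of each gene in liver and in SCN, by edgeR. Liver values of Scd1, Scd2, Elovl2, Elovl3 and Elovl5 lie below 0, while SCN values lie between -0.11 and 0.26 log2.

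Other genes of the pathway, in lists that were fixed by role, were called as follows in liver, where 46.6% of all genes were called and their median was 0.02 log2. All 6 genes that supply palmitate and its precursors were lower (median -1.59 log2), among them Acss2 (-2.43 log2), Acly (-2.10 log2) and Fasn (-1.65 log2), which make acetyl-CoA and the fatty acid itself. Of 11 regulators, 6 were lower and 1 higher (median -0.41 log2), and Srebf1 (-1.23 log2), Thrsp (-2.18 log2) and Insig1 (-0.96 log2) are those named by the rule. Of 9 elongation cycle genes tested, 4 were higher and 3 lower (median 0.07 log2), with Elovl6, the elongase of palmitate, at -2.11 log2, Tecr at -0.63 log2 and Elovl7 at 2.48 log2. Of 8 other desaturase and electron donor genes, 4 were lower and 1 higher (median -0.33 log2), with Scd4 called lower, from 6.54 ± 4.39 to 0.242 ± 0.312 CPM and without a fold because MCD libraries at 0 are among them, Cyb5r3 at -0.98 log2 and Cyb5b at -0.49 log2. Of 10 genes of polyunsaturated fatty acid handling, 3 were higher and 4 lower (median -0.23 log2), with Abcd2 at 1.11 log2 and Mfsd2a at 1.10 log2, while Acsl6, also named by the rule, averaged 0.131 CPM on control and was not called. In SCN no gene of these lists was called for diet by edgeR (6, 9, 10, 8 and 10 genes tested in the same order), where 0.0635% of all genes were.

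The genes whose log2 levels were most like those of a member over the 36 liver libraries are given as a description, since libraries share diet, time and depth. For Scd1 these were Scd2 (Pearson r = 0.97, with the gene table counts of Scd2 that exceed its bin counts 5.81 times on control and 2.04 times on MCD), Chrna4 (0.95) and Pnpla5 (0.95), for Fads2 Hacd3 (0.86), Fam102a (0.85) and Vdac2 (0.84), and for Elovl5 Rdh11 (0.88), Pdzk1ip1 (0.88) and Aqp8 (0.87). For Fads1 they were Dhrs7 (0.86), Glrx3 (0.83) and L3hypdh (0.80), for Elovl2 Erlin2 (0.87), Snx14 (0.87) and 9530068E07Rik (0.86), and for Elovl3 Adh6-ps1 (0.94), Lama3 (0.93) and Hsd3b4 (0.92). Over the 36 SCN libraries Scd1 was most like Gpm6b (0.89), Scd2 most like Slc1a2 (0.85) and Fads2 most like Tmcc2 (0.76) and Fads1 (0.74).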

How the data were processed

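RNA sequencing counts per gene (72 libraries) and per exon bin were deposited by the authors as whole-number counts, per the file headers. The submitters' processing notes name Trimmomatic, HISAT2, StringTie and DESeq2 with build GRCm39, without versions, and the use of strand in counting is not given in the sources used here. The 8 genes, gene lists and tests were chosen with earlier results of these data known. Genes named outside the 8 were the 3 of largest absolute liver diet difference per list and up to 3 of highest Pearson r with a member, at a mean of at least 1 CPM. Markers came from fixed lists, and Cyp2d9, Slco1a1, Cyp4a12a and Hsd3b5 were named after their values were seen.

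Counts were tested in R 4.3.3 with edgeR 4.0.16 (TMM, filterByExpr with a minimum count of 10, robust quasi-likelihood F test, Benjamini-Hochberg threshold 0.05), fitted to the 36 libraries of a tissue with a level for each diet and time, written as the harmonics of a 24 h day, and sex as a term. Alternatives were limma 3.58.1 (voom), DESeq2 1.42.0, other scalings, no filter, exon-bin counts summed per gene, kinds of library and libraries left out. Exon usage was tested with edgeR over 34 liver libraries, since the files of 2 control libraries of CT0 end early. The diet, rhythm on MCD, rhythm difference, sex by diet, tissue by diet and exon-usage tests of edgeR were tested on simulated data. Diet effects of 0.5 and 1 log2 were recovered for 72% and 94% of changed genes in liver and 75% and 91% in SCN. For rhythm differences it was 3% and 43% in liver and 4% and 51% in SCN, and for sex by diet 20% and 72% and 31% and 71%. Rhythm differences of such sizes that were not called are thus not shown to be absent. CPM per kb uses exon lengths of GENCODE M21 (GRCm38), from which the sequences were also read. Depth, 23.3 to 86.7 M counts per library, sets the counting error.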

Additional observations from a re-analysis of the deposited data

Results flagged for a closer look

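Effects of the same contrast differed between groups, by a test of the difference itself (edgeR's quasi-likelihood F test, adjusted by Benjamini and Hochberg), for 7 results.

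The diet effect of Fads1 in liver in females minus that in males was -0.68 log2, from 885 ± 135 to 556 ± 93.1 CPM in females (SD, n = 6) and from 559 ± 124 to 567 ± 142 CPM in males (n = 12). The diet effect in SCN minus that in liver was 4.23 log2 for Scd1, 2.56 log2 for Scd2, 1.20 log2 for Elovl5 and 0.82 log2 for Elovl2. The liver difference behind the Scd2 value was -2.56 log2 in the gene table and -1.13 log2 with exon-bin sums. The 24 h curve differed between the diets in liver for Elovl5, with a range of the difference of 1.51 log2, and for Fads2, with 1.44 log2.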

How the results depend on the processing

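Of 699 alternatives to counts of called genes 638 stayed within 1.5 times, and of 4358 for single genes 4100 kept direction and call, 173 lost it, 41 gained it and 44 turned sign; the causes were not tested. The number of liver members called was, for rhythm on control, 1 with exon-bin sums and within either kind of library; for rhythm on MCD, 0 within the high kind; and for rhythm differing by diet, 0 within either kind. For the liver sex difference it was 1 with a replicate block, with exon-bin sums and within the low kind. For sex by diet it was 2 with limma voom, DESeq2, a replicate block or the kind as a term, without control CT08 a and without the 3 male libraries, and 0 within either kind. In SCN it was 1 for rhythm on control with a replicate block or exon-bin sums, 1 for rhythm on MCD with limma voom or DESeq2, 1 for the sex difference with exon-bin sums and 1 at single times with DESeq2. With single libraries or a replicate number left out, it ran from 5 to 6 for liver diet, 15 to 27 at single times, 1 to 5 for rhythm on control, 2 to 5 for rhythm on MCD, 0 to 3 for their difference, 1 to 2 for sex and 0 to 2 for sex by diet. In SCN it ran from 0 to 2 for either rhythm and 0 to 3 for sex, with 6 to 7 for tissue and 2 to 3 for exon usage. Signs turned, among the diet effects, for these differences. In liver they were Fads1 (0.0256 log2) and Fads2 (0.215) with library totals alone, and Fads2 within the high kind (0.0766) and with libraries left out (-0.193 to 0.182). In SCN they were Scd1 with totals alone (-0.000125), with voom (-0.000715) and with libraries left out (-0.0445 to 0.0356), Scd2 with a replicate block (0.00461) and with libraries left out (-0.0455 to 0.0305), and Elovl2 with libraries left out (-0.112 to 0.155). The diet effect by tissue turned with libraries left out for Fads1 (-0.0270 to 0.323) and Fads2 (-0.225 to 0.191), and for Fads2 with totals alone (-0.1396), voom (-0.000867) or without CT08 a (-0.0165). The replicate numbers were not taken to pair the samples, since not every pair correlated over 0.1: deviations of same-numbered libraries correlated at 0.0697 to 0.432 over 16 liver pairs (13 over 0.1, 13 best with their own number) and at -0.0861 to 0.284 in SCN (8 over 0.1, 9 best). The replicate block left out the control CT08 males, whose number is not known, and gave Fads2's rhythm difference as 1.30 log2 (adjusted p = 0.0507, edgeR) and Fads1's liver diet effect as -0.27 log2 (0.0356), and ended the calls of the rhythm on control of Elovl5 in SCN (0.28 log2, 0.118) and Elovl2 in liver (0.43, 0.061) and of the sex difference of Fads1 in liver (0.30, 0.061) and Fads2 in SCN (0.10, 0.060). Sex could not be fitted without replicate 3, and single times were not fitted within kinds. Exon-bin sums, kinds and the 3 male libraries were alternatives chosen after seeing the data. Sex results without those 3 libraries are a description only. Low counts limit Elovl3 in females, and zeros in the gene table limit Scd3 in liver.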

Other observations

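The 3 male liver libraries that stood apart, control CT08 a, MCD CT04 1 and MCD CT12 2, held Elovl3 at 5.34, 0.915 and 0.542 CPM, against 8.76 to 750.0 CPM in the other 21 males and 0.312 to 4.77 CPM in the 12 females. Hsd3b5, a male-biased hepatic steroid dehydrogenase gene, stood at 10.9, 0.475 and 0.135 CPM in them, against 22.05 to 382 CPM in the other males and up to 26.2 CPM in females. Slco1a1, an organic anion transporter gene, stood at 237, 11.9 and 8.69 CPM against 137 to 869.98 CPM, so control CT08 a lay within the range of the other males for this gene. Cyp4a12a, a male-specific fatty acid hydroxylase gene, stood at 75.5, 4.23 and 3.60 CPM against 13.4 to 330.2 CPM in the other males, so control CT08 a again lay within their range, and at most 1.07 CPM in females. Ddx3y stood at 55.2, 54.5 and 34.3 CPM against at most 0.381 CPM in females. These genes were named after their values were seen. The bin files of MCD CT04 1 and MCD CT12 2, and of the library labelled control CT08 1, also held the highest counts of the 8 Scd2 bins other than 5, 7 and 8. Whether control CT08 a of the gene table is control CT08 1 of the bin files is not given by the labels.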
